A study of Mus musculus with 9 samples.

Results

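Collagens, laminins, fibronectin, hyaluronan proteoglycans and elastic fibre proteins form the extracellular matrix, and 42 mouse genes for such proteins were followed here through the binding sites of CHD7, an ATP-dependent chromatin remodeller that is mutated in CHARGE syndrome. The genes were taken from a named list, and a CHD7 peak was counted for a gene when its midpoint fell in the regulatory domain of that gene. This domain ran from 5 kb upstream to 1 kb downstream of 1 TSS (the basal domain) and was lengthened on each side until it met a neighbouring basal domain, by 1 Mb at most, for 21911 protein-coding genes in all. The cells were wild-type (WT) CP cells, derived in culture from ESCs of C57BL6 mice and collected at day 5 of CM differentiation. CUT&RUN, in which an antibody brings a nuclease to its target and the released DNA is sequenced, was done in 9 libraries, with 3 replicates each for anti-CHD7, for IgG and for input with no antibody. The deposited list joins the 3 anti-CHD7 replicates and gives only the positions of 3761 peaks, so that no value by replicate, no depth and no test over samples could be had, and the identity of the cells could not be checked against markers. Intervals below were computed by the Wilson method at 95% and reflect counting error alone. They treat genes, pairs and peaks as independent, although some genes hold more than 1 peak and some peaks are shared, so they may be too narrow.

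The matrix is laid down early in the heart. Hyaluronan made by HAS2, bound by versican (Vcan) and the link protein HAPLN1, swells into the cardiac jelly between the myocardium and the endocardium and is needed for the cushions from which the valves form. Fibronectin (Fn1) is a substrate on which cardiac mesoderm migrates and which supports its epithelial organisation. Laminins, nidogen, perlecan (Hspg2) and type IV collagen build basement membranes, whereas fibrillar collagens and elastin give the later valves and vessel walls their strength.

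The sequences below are the central 200 bp of 6 CHD7 peaks, shown because these peaks carry the positions described further on. They are the peak with the most motif matches (Has2), a peak in Vcan that was counted for a pair of cardiac jelly genes (Vcan and Hapln1), the nearest and the widest peak of Fn1, the peak closest to the TSS of a member (Col18a1) and the widest peak of the set (Fbln1). They were read from the plus strand of GRCm38.p6, the assembly of mm10, from chr15:56627481-56627680, chr13:89677670-89677869, chr1:71709715-71709914, chr1:71936640-71936839, chr10:77116510-77116709 and chr15:85273158-85273357. Capitals mark matches on either strand to the motifs named below, and the windows of Col18a1 and Fbln1 held none.
Has2 peak3131: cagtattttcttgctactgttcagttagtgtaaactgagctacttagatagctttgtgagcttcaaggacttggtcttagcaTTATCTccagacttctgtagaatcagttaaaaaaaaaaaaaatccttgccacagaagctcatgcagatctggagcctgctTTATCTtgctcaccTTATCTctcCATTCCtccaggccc
Vcan and Hapln1 peak2848: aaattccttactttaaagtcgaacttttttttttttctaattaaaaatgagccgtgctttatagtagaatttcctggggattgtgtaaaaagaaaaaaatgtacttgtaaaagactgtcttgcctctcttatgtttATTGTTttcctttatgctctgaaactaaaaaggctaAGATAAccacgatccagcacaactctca
Fn1 peak60: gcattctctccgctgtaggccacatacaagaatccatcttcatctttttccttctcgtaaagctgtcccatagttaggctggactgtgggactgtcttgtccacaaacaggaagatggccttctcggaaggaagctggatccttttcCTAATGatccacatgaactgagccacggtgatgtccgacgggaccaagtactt
Fn1 peak61: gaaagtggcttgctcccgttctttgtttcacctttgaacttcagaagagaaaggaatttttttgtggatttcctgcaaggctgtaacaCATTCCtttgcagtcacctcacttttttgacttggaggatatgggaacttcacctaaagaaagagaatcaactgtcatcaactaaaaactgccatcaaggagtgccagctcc
Col18a1 peak2171: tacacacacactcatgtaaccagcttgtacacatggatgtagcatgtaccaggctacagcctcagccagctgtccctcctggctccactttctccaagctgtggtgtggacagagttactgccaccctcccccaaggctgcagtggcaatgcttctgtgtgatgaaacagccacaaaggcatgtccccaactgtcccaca
Fbln1 peak3191: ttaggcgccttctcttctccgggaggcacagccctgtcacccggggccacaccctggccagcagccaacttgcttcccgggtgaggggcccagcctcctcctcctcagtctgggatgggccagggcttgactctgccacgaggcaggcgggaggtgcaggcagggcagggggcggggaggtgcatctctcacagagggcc

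At least 1 CHD7 peak lay in the domain of 17 of the 42 matrix genes (40.5%, 95% CI 27.0 to 55.5), against 22.7% of all protein-coding genes. The matrix genes have long domains, whose median length was 308954 bp where that of all genes was 90166 bp, and long domains collect more peaks. Among the 500 other genes nearest in domain length to each member, 38.1% had a peak on average, which amounts to 16.0 of 42. The observed count was 1.06 times this number, so that the matrix genes as a list held about as many genes with a peak as other genes with domains of like length. They held 26 gene and peak pairs where genes of like length gave 24.1. The pairs came from 25 distinct peaks on 12 chromosomes, since peak2848 was counted for both Vcan and Hapln1. Together the domains covered 18 Mb with 1.39 peaks per Mb, and the domains of all genes had 1.45 peaks per Mb.

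**Figure D1:**
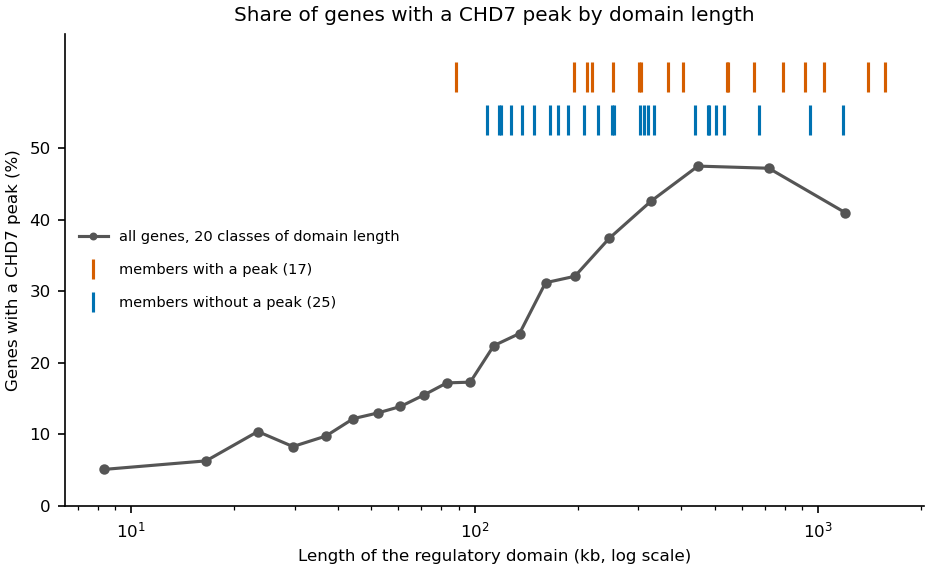
Share of genes with a CHD7 peak (%) against the length of the regulatory domain (kb, log scale). Points are 20 classes of all 21911 genes by domain length, and ticks above them are the 17 members with and the 25 without a peak. The share rises from 5.11% in the shortest class to 47.5% in the class with a median of 447211 bp, and is 41.0% in the longest class. Members with and without a peak overlap over most of the range.

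The count depended on the way peaks were given to genes. When each peak went only to the single nearest TSS, 10 members had a peak, 0.988 times the number for genes of like length. With peaks wider than the median of the list (703 bp) 5 members did, 0.530 times the number for genes of like length.

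Numbers of peaks per gene ran from 0 to 4. Of the 42 genes, 25 had no peak, 11 had 1, 4 had 2 (Has2, Eln, Col5a1 and Col8a1), Fn1 had 3 and Col18a1 had 4. Thus 6 members (14.3%) had 2 or more peaks, against 5.88% of all genes without regard to domain length. All 3 hyaluronan matrix genes had a peak where genes of like length gave 1.33, but peak2848 was counted for a pair of them. For elastic fibre genes it was 3 of 5 (1.72 for like length), for fibrillar collagens 3 of 8 (3.04), for other collagens 4 of 11 (4.55), for basement membrane genes 3 of 12 (4.01) and for the adhesive and matricellular genes 1 of 3 (1.38). These groups are small, and none of the differences was tested.

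**Figure D2:**
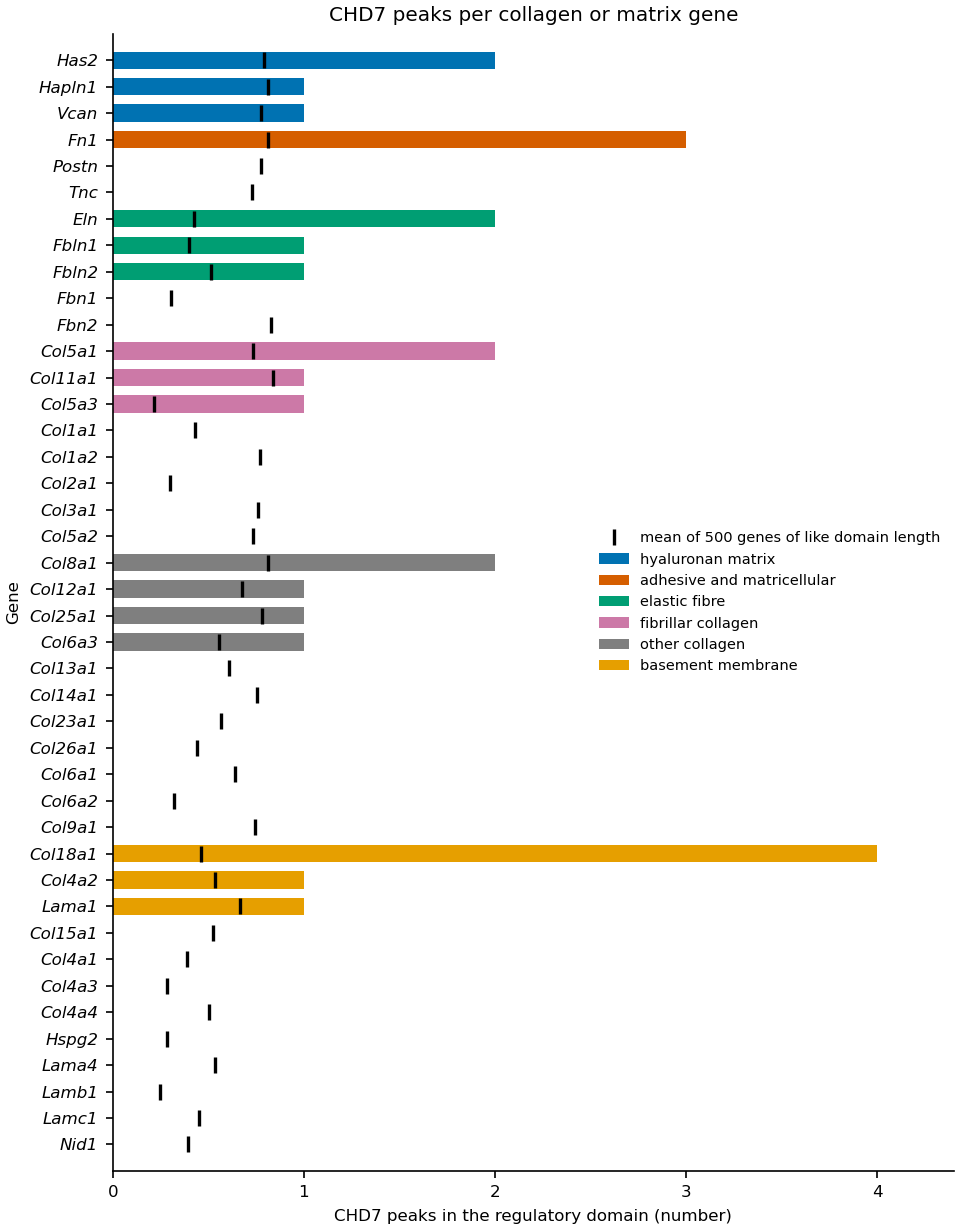
Number of CHD7 peaks in the regulatory domain of each of the 42 genes (bars, coloured by group) and the mean number in the 500 genes of like domain length (black ticks). Col18a1 with 4 peaks and Fn1 with 3 stand above means of 0.462 and 0.812, and 25 genes have no bar.

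Has2, the main hyaluronan synthase of the embryonic heart, lies on chromosome 15 and had the longest domain of the members, 1564675 bp, with 2 peaks. Genes of like length had 0.792 on average. Peak3131 (chr15:56627310-56627851, 542 bp) was 66959 bp downstream of the TSS and peak3132 (chr15:56858296-56858781, 486 bp) at -163999 bp, a negative distance being upstream. Both were intergenic, with Sntb1 and Slc22a22 as the other genes that hold them in their domains, and the TSS of Has2 was the nearest protein-coding TSS to both. The central window of peak3131, printed above, held 3 matches to the GATA consensus AGATAA and 1 to the TEAD consensus GGAATG. Of the 3761 peaks, 5 (0.133%) held 3 or more GATA matches in this window. Peak3131 is 1 of these 5 and was picked for its number of matches, so this share is a description and tests nothing.

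Vcan, the large proteoglycan that binds hyaluronan, and Hapln1, which stabilises that bond, are neighbours on chromosome 13 and are transcribed towards each other. Their only peak, peak2848 (chr13:89677514-89678024, 511 bp), lay in intron 10 of Vcan. It was 64475 bp downstream of the TSS used for the domain of Vcan and 137973 bp downstream of that of Hapln1. A short annotated transcript of Vcan with 3 exons (ENSMUST00000160740) starts inside the gene, and the midpoint was 352 bp from its TSS. The window held 1 SOX match (AACAAT, read here as its reverse complement) and 1 GATA match, and with 34.4% the peak had the lowest GC content of the set.

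Fn1 encodes fibronectin, and its 3 peaks all lay upstream of the gene, in the interval before Mreg. Peak60 (chr1:71709548-71710080, 533 bp) was at -56639 bp, peak61 (chr1:71936112-71937367, 1256 bp) at -283564 bp and peak62 (chr1:72101062-72101838, 777 bp) at -448275 bp. The TSS of Fn1 was the nearest to peak60, whereas that of Mreg was nearer to peak61 and peak62. The midpoint of peak60 lay in Gm5829, a processed pseudogene. A processed pseudogene is a copy of another transcript, and how uniquely reads map there was not tested. The window of peak60 held a match to CTAATG, the core of LIM homeodomain sites, and that of peak61 a match to the TEAD consensus. Postn (periostin) and Tnc (tenascin C), matricellular proteins of the cushions and outflow tract, had no peak in domains of 531047 and 1180668 bp, and their nearest peaks were at -1258733 and -1205294 bp.

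Col18a1, the gene of type XVIII collagen in basement membranes and the source of endostatin, had the most peaks of the members. Its domain of 220005 bp on chromosome 10 held 4 peaks, where genes of like length had 0.462. Peak2173 (chr10:77230180-77230903, 724 bp) was at -116836 bp, peak2172 (chr10:77131357-77132599, 1243 bp) at -18273 bp, peak2171 (chr10:77116262-77116956, 695 bp) at -2904 bp and peak2170 (chr10:77055021-77055508, 488 bp) at 58441 bp. Peak2171 was the only peak in the basal domain of a member, 1 of 42 genes where 3.16% of all genes had such a peak. Col18a1 has alternative promoters, and this call rests on the TSS chosen. Peak2171 and peak2172 lay in an intron of the longer transcripts, 49939 and 34570 bp downstream of the most upstream coding TSS. Peak2170 lay in intron 38 of Col18a1, near the end of the gene where Slc19a1 overlaps it. The TSS of Slc19a1, at 22052 bp, was nearer than the TSS used for the domain of Col18a1. Another annotated coding TSS of Col18a1 was only 4733 bp from this peak. Peak2173 was intergenic and nearer to the TSS of Pofut2, at 28677 bp. Peak2171 was also the only peak of the set that was given to a single gene.

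**Figure D3:**
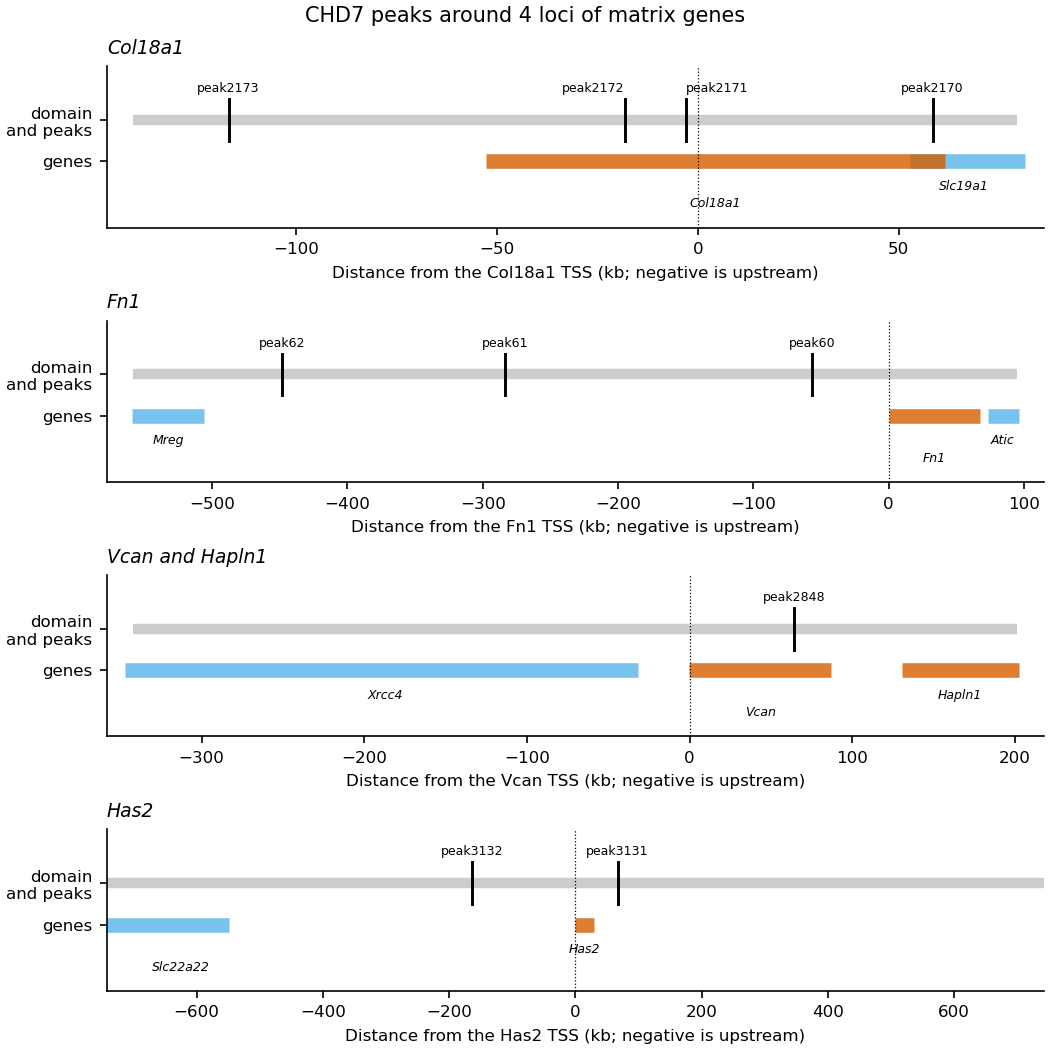
CHD7 peaks (black lines, with their number in the list), regulatory domains (grey) and protein-coding genes (orange for members, blue for others) against the distance from the TSS (kb, negative is upstream) at Col18a1, Fn1, Vcan with Hapln1, and Has2. The 3 Fn1 peaks lie upstream, 3 of the 4 Col18a1 peaks lie within the gene, peak2848 lies in Vcan, and the Has2 domain continues past both ends of its panel.

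Of the other basement membrane genes, Col4a2 and Lama1 had 1 peak each. Peak1646 (chr8:11195770-11196327, 558 bp) was at -116757 bp from the TSS of Col4a2, a chain of type IV collagen, in the antisense gene Gm15418, with Irs2 as the other gene. Col4a1 and Col4a2 are transcribed away from each other from TSSs 21 bp apart, and the rule gave this peak to Col4a2 because the basal domain of Col4a2 closes the domain of Col4a1 on that side. The peak lay just past the 3′ end of Col4a1, 116778 bp downstream of its TSS. Peak3470 (chr17:67802048-67802445, 398 bp) lay in intron 45 of Lama1, the laminin alpha chain of the earliest embryonic basement membranes, 104987 bp downstream of the TSS, with Arhgap28 as the other gene. Of the list, 73 peaks were narrower than it. No peak fell in the domains of Col4a1, Col4a3, Col4a4, Col15a1, Lama4, Lamb1, Lamc1, Nid1 and Hspg2, which ran from 108682 bp (Lamb1) to 302243 bp (Lama4). The domains of Col4a1, Col15a1, Lamc1, Nid1 and Hspg2 measured 165884, 255312, 228714, 186782 and 119284 bp. Lamb1 and Lamc1 encode the beta and gamma chains that pair with laminin alpha chains, and their nearest peaks were at -66931 and -304055 bp. Nid1 encodes nidogen, which links laminin to type IV collagen, and Hspg2 perlecan, with the nearest peaks at -85222 and 129689 bp. Col4a3 and Col4a4, type IV chains of the kidney glomerulus, share a start region with TSSs 127 bp apart, and they had domains of 137914 and 251800 bp with the nearest peak at 1058749 and -1058876 bp. Col15a1, which is related to Col18a1, and Lama4, a laminin alpha chain of vessels and heart muscle, had theirs at -427383 and 259214 bp.

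The fibrillar collagens with a peak were chains of type V and type XI collagen, which set the diameter of collagen fibrils. Col5a1 had 2 peaks 3725 bp apart in intron 1 of Rxra, the gene of a retinoid receptor. Peak287 (chr2:27699358-27699899, 542 bp) was at -186797 bp and peak288 (chr2:27702871-27703835, 965 bp) at -183072 bp from the TSS of Col5a1, and the TSS of Rxra was much nearer to both, at 22427 and 26152 bp. Col11a1 had peak685 (chr3:114471827-114472147, 321 bp), 441447 bp downstream of the TSS in intergenic sequence before Olfm3. Only 2 peaks of the list were narrower. Col5a3 had peak1839 (chr9:20767984-20768492, 509 bp), 46829 bp downstream, past the end of the gene, with the TSS of Olfm2 nearer at 41301 bp. Soft-masked repeats made up 80.6% of this peak, the highest share of the set, against a median of 13.2% over all peaks. Its domain of 88130 bp was the shortest of the members.

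Of the fibrillar collagens, Col1a1, Col1a2, Col2a1, Col3a1 and Col5a2 had no peak in their domains. Col1a1 and Col1a2, the chains of type I collagen, had domains of 175092 and 503866 bp, and 34.4% and 48.8% of genes of like length had a peak. Their nearest peaks were 69304 and 129613 bp downstream of the TSS, outside the domain. Col3a1 and Col5a2, the latter a chain of type V collagen like Col5a1 and Col5a3, are neighbours on chromosome 1. Their domains measured 949770 and 477627 bp, and peak28 was the nearest to both, at 569559 and -377815 bp. Col2a1, the cartilage collagen, had a domain of 127513 bp and the nearest peak at 96580 bp. A gene without a peak here had no site in its domain that the authors called in at least 2 replicates, and weaker binding could not be examined.

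Of the other collagens, Col8a1, a network-forming collagen of vessel walls, had 2 peaks upstream. Peak3329 (chr16:57799144-57799756, 613 bp) was at -44713 bp and peak3330 (chr16:57857934-57858689, 756 bp) at -103574 bp, the latter in the lincRNA Gm49575. The TSS of Col8a1 was the nearest to both, and Dcbld2 was the other gene. Col6a3, a chain of the beaded filaments of type VI collagen, had peak102 (chr1:90775643-90775888) in its coding sequence, 68187 bp downstream of the TSS and shared with the domain of Cops8. With 246 bp it was the narrowest peak of all 3761 and, with 61.4%, the one with the highest GC content of the set. Col12a1, which decorates fibrils, had peak1980 (chr9:79073495-79073962, 468 bp) 644790 bp downstream, the greatest distance of the set, and the TSS of Cd109 was nearer. Col25a1, a transmembrane collagen, had peak696 (chr3:130596625-130597289, 665 bp), 416066 bp downstream in a UTR at the end of the gene, with the TSS of Etnppl 20612 bp away. Peak695 was nearer to the TSS of Col25a1, at -210135 bp, but past the boundary of the domain. Col6a1, Col6a2, Col9a1, Col13a1, Col14a1, Col23a1 and Col26a1 had none. Col6a1 and Col6a2, the partner chains of Col6a3, are neighbours with domains of 332157 and 148519 bp, and their nearest peaks were at -284719 and -387257 bp. Col14a1, which like Col12a1 decorates fibrils, had a domain of 439090 bp and the nearest peak at 345686 bp. For Col13a1, another transmembrane collagen, and Col26a1 the domains were 320902 and 208971 bp and the nearest peaks at -361187 and -426908 bp. For Col9a1, a collagen of cartilage with a domain of 481138 bp, the nearest peak was at -6535221 bp, the greatest such distance among the 25 members without a peak. For Col23a1, also transmembrane, with a domain of 311805 bp, it was at -42872 bp, the smallest, but past the boundary of the domain.

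Elastic fibres were represented by 3 genes with a peak. Eln, the gene of elastin, had 2 peaks upstream, peak1145 (chr5:134832636-134833132, 497 bp) at -85561 bp and peak1146 (chr5:134901278-134901970, 693 bp) at -154301 bp. Peak1146 lay in the coding sequence of Tmem270, 5109 bp from the TSS of that gene, which was also the nearest TSS to peak1145. Fbln1, whose product fibulin-1 binds fibronectin and elastin, had peak3191 (chr15:85272183-85274331) in its intron 16, 67308 bp downstream of the TSS. At 2149 bp it was the widest of the set, and 76 peaks of the list were wider. The TSS of Atxn10, at 62988 bp, was slightly nearer than the TSS used for the domain of Fbln1. Fbln2, the gene of fibulin-2 in endocardial cushions, had peak1306 (chr6:91301651-91302266, 616 bp) 89503 bp downstream, between Fbln2 and Wnt7a. Peak1305 was nearer to the TSS of Fbln2, at -56067 bp, but past the boundary of the domain. Fbn1 and Fbn2, the fibrillins of microfibrils, had none in domains of 118023 and 671578 bp. A further peak, peak443 (776 bp), did lie in intron 48 of Fbn1, 180610 bp downstream of the TSS, but the predicted gene Gm9913, which overlaps the start of Fbn1, closed the domain before it. The nearest peak to Fbn2 was at 1284759 bp.

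Nearly all of these peaks were far from the TSS of the matrix gene. Of 26 pairs, 25 lay over 10 kb away (96.2%, 95% CI 81.1 to 99.3), against 81.5% of the 6819 pairs of all genes and 89.6% of pairs of genes of like domain length. Over 50 kb there were 22 pairs (84.6%, 95% CI 66.5 to 93.8), against 53.5% and 67.0%. The median distance was 104280 bp for the matrix genes and 88038 bp for genes of like length. Measured from any annotated coding TSS of the gene, 3 pairs lay within 5 kb, peak2171 and peak2170 of Col18a1 and peak2848 of Vcan. From any annotated TSS, coding or not, 5 pairs lay within 10 kb. These added peak102 at -2550 bp from a TSS of Col6a3 and peak3191 at 9803 bp from a TSS of Fbln1. There were 14 pairs upstream of the TSS and 12 downstream, and 44.0% of the pairs of all genes were upstream.

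**Figure D4:**
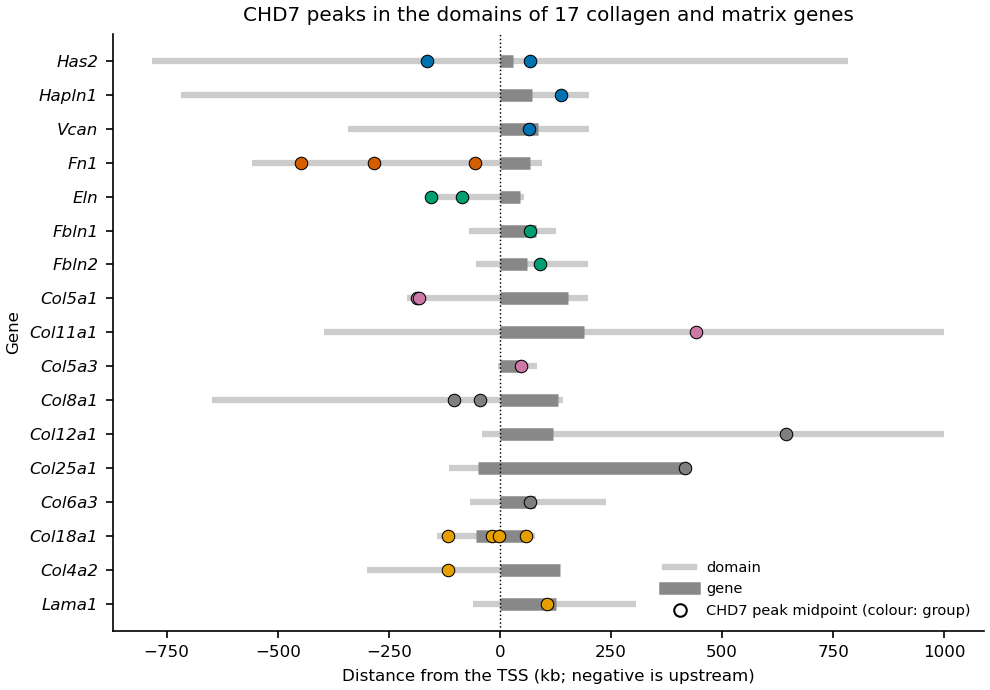
Midpoints of CHD7 peaks (circles, coloured by group as in the plot of peaks per gene) in the domains (light grey) of the 17 genes with a peak, against the distance from the TSS in kb, with the gene body in dark grey. 14 pairs lie upstream and 12 downstream, and 1 of 26, at Col18a1, lies within 10 kb of the dotted TSS line.

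Peaks inside the gene body were counted separately from domains. A peak lay in the body of 7 members (Col6a3, Col18a1, Col25a1, Vcan, Fbn1, Fbln1 and Lama1), where 8.09% of all genes had such a peak without regard to gene length. With 1 TSS taken per protein-coding gene, that of the member was the nearest in 13 of 26 pairs (50%, 95% CI 32.1 to 67.9), against 55% of all pairs. Further annotated TSSs of a gene, such as that of Col18a1 near peak2170, did not enter this count. Of the 25 peaks, 24 were counted for more than 1 gene, as were 81.3% of all peaks. The other genes of these domains, such as Rxra at Col5a1 and Wnt7a at Fbln2, cannot be told apart as targets by position. By the annotation at the midpoint, 14 peaks (56%) were outside protein-coding genes, 8 (32.0%) in an intron, 2 in coding sequence and 1 in a UTR. Over all peaks 46.8% were outside protein-coding genes and 44.3% in an intron.

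The peaks in matrix domains were mostly narrow. Their width ran from 246 to 2149 bp with a median of 558 bp, and 7 of 25 (28%, 95% CI 14.3 to 47.6) were wider than 703 bp, the median of the whole list. In the domains of genes of like length 48.6% of peaks were. The 7 wide peaks belonged to Col5a1, Col8a1, Col18a1, Fn1 and Fbln1. Their GC content ran from 34.4% to 61.4%, with a median of 49.2% against 47.5% over all peaks, and 15 of 25 were above the latter. With no read counts in the list, width is the only measure of a peak, and it was not tested whether it follows the strength of binding.

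**Figure D5:**
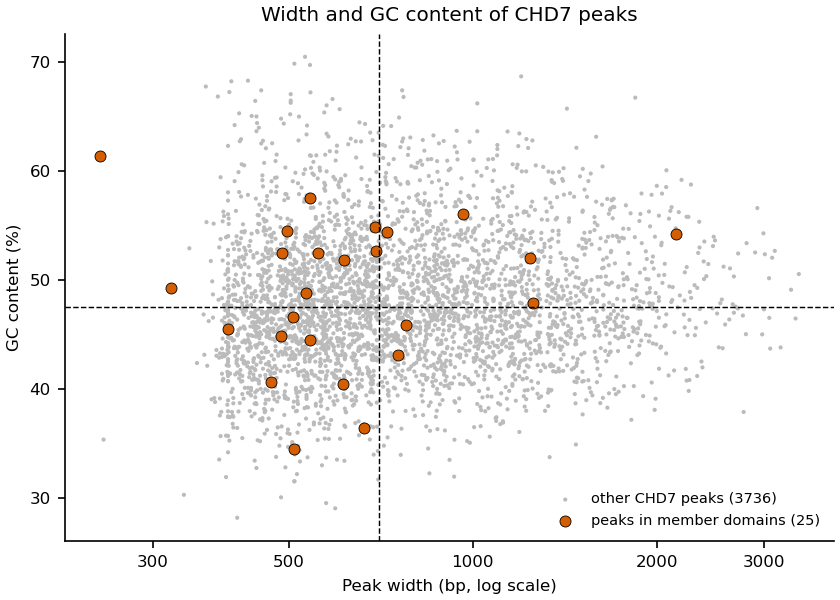
Width (bp, log scale) and GC content (%) of the 25 peaks in matrix gene domains (orange) and of the other CHD7 peaks (grey), with dashed lines at the medians of the whole list, 703 bp and 47.5%. Most orange points, 18 of 25, lie to the left of the width line, and their GC content runs from 34.4% to 61.4%, with grey points beyond both ends.

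Motifs were searched as short consensus sequences on both strands of the central 200 bp, and a match is a description of letters, not a binding site. The GATA consensus, AGATAA, matched in 5 of 25 peaks (20%, 95% CI 8.86 to 39.1) against 11.8% of all 3761 peaks, and these were peak288 of Col5a1, peak2170 of Col18a1, peak2848, peak3131 and peak3330 of Col8a1. TEAD (GGAATG) matched in 6 (24.0%, 95% CI 11.5 to 43.4) against 11.8%. LIM homeodomain (CTAATG) matched in 4 (16.0%) against 7.71%, NKX (TNAAGTG) in 3 (12.0%) against 11.4% and SOX (AACAAT) in 2 (8%) against 9.63%. AP-1 (TGANTCA), FOX (GTAAACA), T-box (GGTGTGA) and MEF2 matched in none of the 25 windows, which allows a share of up to 12.0% when 3 counts are set against a count of 0 (the Wilson upper bound was 13.3%), and in 6.67%, 3.14%, 2.74% and 1.89% of all peaks. For each of the 9 motifs the interval of this central window held the share of all peaks. When the whole peak was searched instead, LIM homeodomain matched in 12 of 25 (48.0%, 95% CI 30.0 to 66.5) against 26.9% of all peaks, and this interval did not hold the share of all peaks, while those of the other 8 motifs did. In whole peaks GATA, above the share of all peaks in the central window, was below it, with 7 of 25 (28%) against 36.8%. NKX also turned from above to below, with 28% against 38.2%, and SOX from below to above, with 40.0% against 32.2%. TEAD matched in 44.0% against 39.1%, AP-1 in 8% against 23.1%, FOX in 4% against 12.2%, T-box in 4% against 12.5% and MEF2 in none against 9.55%. Whole peaks differ in length, with medians of 558 bp for these peaks and 703 bp for the list, and none of the motif differences was tested. In the central windows, matches of different motifs overlapped in 0 of 25, and 11 windows, among them those of Col18a1 peak2171 and Fbln1 printed above, held no match.

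A further 137 genes of matrix biology that are not in the list of 42 were counted for comparison. Of these, 53 (38.7%, 95% CI 30.9 to 47.0) had a peak in their domain, where genes of like domain length gave 37.6, or 27.4%. By role, it was 14 of 31 glycoproteins (7.97 for like length), 9 of 21 integrins and other receptors (6.63), 7 of 19 further collagen chains (5.69), 6 of 13 laminins and basement membrane genes (3.97), 6 of 19 proteases and inhibitors (5.68), 6 of 17 crosslinking and processing enzymes (4.22) and 5 of 17 proteoglycan and hyaluronan genes (3.42). Each of these counts was above that of genes of like length, but the list was drawn up by hand and no test was made.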

How the data were processed

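CUT&RUN libraries (3 anti-CHD7 and 3 IgG) and 3 input libraries of WT CP cells at day 5 were processed by the authors. They trimmed reads with fastp 0.20.1, aligned them to mm10 with bwa 0.7.17.4 and removed UMI duplicates with JE-Suite. Peaks were called for each sample with MACS2 2.1.2 and IgG as control. Sites shared by 2 or more replicates entered the deposited list, whose values are start and end positions in bp, read here as 0-based starts. The calling threshold is not given in the sources used here, and reads of the control libraries were not used here.

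Domains were built on GENCODE M21 (GRCm38) with 1 TSS per gene, by APPRIS level and then spliced length, without the curated domains of GREAT. Sequence was read from GRCm38.p6, and peak names are the order in the list. For each member, the 500 genes nearest in log10 domain length, members left out, served for comparison. The 42 members, their groups, the 137 other genes and the motifs were chosen with earlier results of these data known. Every member was named, with all of its peaks or its nearest one, and of the other genes the 5 with the most peaks. Printed sequences were picked after their values were seen. No test over samples was possible, and all comparisons are descriptions. Functions were tested on simulated data. Python 3.11.15 was used with numpy 2.4.6, scipy 1.17.1, pysam 0.24.0, matplotlib 3.10.9 and samtools 1.23.1.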

Additional observations from a re-analysis of the deposited data

How the results depend on the processing

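The counts changed with the rule that ties peaks to genes. With the basal domain alone, 1 member and 1 peak were left, with a ratio of 0.850 to genes of like length. For that pair 0% lay over 10 kb away and 100% lay in the gene body. The member was the nearest TSS in 100%, and 0% held the GATA consensus. With the single nearest TSS, 10 members and 13 peaks were left, with a ratio of 0.988 to genes of like length. The member was nearest in 100% by construction. Peaks wider than the median left 5 members, 7 peaks and a ratio of 0.530 to genes of like length, with 100% of pairs over 10 kb away and 28.6% nearest to the member. The most upstream TSS of each gene put 100% of pairs over 10 kb away, since it moved the TSS of Col18a1. Of the 137 other matrix genes, 6 had a peak in the basal domain, where 3.16% of all genes did. With the nearest TSS and with the wide peaks, 33 and 32 of the 137 had a peak. Whether these counts lie above those of genes of like length was not tested. The 2 nearest genes, an extension of up to 500 kb, other TSSs, any overlap and merged peaks kept 16 or 17 members, each among the 17, and Col12a1 was the member lost at 500 kb. Comparing with 200 or 1000 genes of like length gave ratios of 1.05 and 1.06. Searching whole peaks in place of the central 200 bp, chosen after seeing the data for all motifs but GATA, raised the share of TEAD from 24.0% to 44.0%, of SOX from 8% to 40.0% and of LIM homeodomain from 16.0% to 48.0%, beyond their first intervals, and turned GATA, NKX and SOX to the other side of the share of all peaks. The other values stayed within 1.5 times the counts or within the confidence interval of the shares. No paired analysis was possible because the list pools the replicates and no result comes from a test over samples. For the same reason no replicate could be left out.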

Other observations

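Among the other matrix genes, 5 were named by number of peaks, with ties in the order of the symbol. They were Adamts20 and Has3 with 4 and Ccn1, Itga9 and Matn1 with 3. P4ha3, Smoc2 and Thbs2 also had 3, but Smoc2 and Thbs2, both on chromosome 17, were counted with shared peaks. Has3, a second hyaluronan synthase gene, on chromosome 8, held its 4 peaks in a domain of 204582 bp, where genes of like length had 0.420. Peak1766 was at -457 bp and peak1767 at 1508 bp from its TSS, while peak1764 and peak1765 lay in introns of Tango6 at -57134 and -31080 bp. Has2 held 2 peaks in a domain of 1564675 bp, neither in its basal domain. Adamts20, a protease that cleaves versican, held 4 peaks in 1014119 bp, of which peak3204 and peak3205 lay in its own introns at 32364 and -50608 bp and the farthest at 865779 bp in an intron of Prickle1. Ccn1, a matricellular protein needed for the cardiac septa, had peaks at -8507, 49511 and -79764 bp, the one at 49511 bp in the coding sequence of Znhit6. Itga9, an integrin chain that binds tenascin and fibronectin, had a pair of peaks in its own introns at 59364 and 289453 bp and another at -31969 bp in Golga4. Matn1, a cartilage matrilin, had peaks at -6378, 272315 and 415293 bp, all outside protein-coding genes. Since the genes were chosen by number of peaks, their counts are a description with no test.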
